A study of Mus musculus with 12 samples.

Results

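RNA from CD45-positive immune cells of the liver was compared between mice treated with polyIC alone and mice treated with an antibody to PD-L1 alone. The 6 libraries, 3 for each treatment, were chosen by their labels out of 12 in the study, and every gene of the table entered the comparison. Genes listed at 0 in a whole group although every library of another group reached 5 FPKM were left out, which removed 22 entries, among them Actb, Apoe and Cd74. FPKM is a fragment count divided by the length of the transcript and by the size of the library. All mice were C57BL/6, and human c-Myc and N-ras genes had been brought into the liver on day 0 by hydrodynamic transfection, a rapid high-volume injection into the circulation that delivers DNA mainly to hepatocytes. On days 14, 16, 18, 20 and 22 the polyIC group was injected intraperitoneally with polyIC at 4 mg/kg, and on days 17, 19 and 21 it was given 200 µg of IgG. The antiPDL1 group was injected with PBS on the former days and given 200 µg of PD-L1 antibody on the latter. Control mice had PBS and IgG, and combination mice had both agents. These other libraries shared the estimate of the spread in the test and are shown for orientation. Livers were taken on day 24 according to the protocol, whereas the time label of the samples gives day 22. Cells were captured with a PE-labelled CD45 antibody and magnetic beads. The promoter that drives the transgenes is not given in the sources used here. Whether replicates were separate mice is also not stated, so the p-values measure only the spread between these samples, which may be technical.

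PolyIC is a synthetic double-stranded RNA that is sensed by the endosomal receptor TLR3 and by the cytosolic helicase MDA5, and both sensors drive type I interferon production. PD-L1, encoded by Cd274, is displayed by tumour and myeloid cells and restrains T cells through their receptor PD-1, so that an antibody against it lifts this restraint. Natural killer (NK) cells and Kupffer cells, the resident macrophages, are prominent immune cells of the liver, and interferon gamma released by NK and T cells induces antigen presentation genes, guanylate-binding proteins, the chemokines Cxcl9 and Cxcl10, and Cd274 itself.

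The label of the sorted cells was checked against Ptprc, which encodes CD45. It was at 379, 416 and 371 FPKM in the polyIC libraries and at 340.0, 327 and 268 FPKM in the antiPDL1 libraries, numbered 0, 1 and 2 as in the labels. None of the 8 pan-leukocyte genes was under 249 FPKM in these 6 libraries. Hepatocyte transcripts were present as well: Alb, the gene for serum albumin, was at 640.2, 934 and 978 FPKM with polyIC and at 276, 124 and 1000.0 FPKM with the antibody. Library totals ranged from 476111 to 677535 FPKM over the 12 libraries. The entry Mir6236 alone made up 15.8 to 19.3% of the total in the polyIC libraries and 7.59 to 11.1% in the antiPDL1 libraries. Its part in the differences was not tested. Read counts were not used here, and the relative depth read from the steps between low values was 0.557 to 0.581 in the polyIC libraries and 0.506 to 0.783 in the antiPDL1 libraries, where 1 is the deepest library. Precision is given by the replicate spread.

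The 3 polyIC libraries resembled each other closely, whereas antiPDL1 replicate 2 stood apart from antiPDL1 replicates 0 and 1. Each polyIC library had a mean Pearson correlation of 0.962 to 0.964 with the others of its group, across genes on the log2(FPKM + 1) scale. The antiPDL1 libraries of replicates 0 and 1 correlated at 0.961, and replicate 2 correlated with them at 0.923 and 0.933. Replicate 2 had a mean correlation of 0.928 with its own group and 0.952 with control. Replicate 0 had a mean of 0.942 with its own group, lowered by replicate 2, and of 0.961 with the combination. The median SD of a gene within its group was 0.18 on the log2 scale with polyIC and 0.29 with the antibody, and the SD was larger in the antiPDL1 group for 9103 of 11978 genes.

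**Figure D1:**
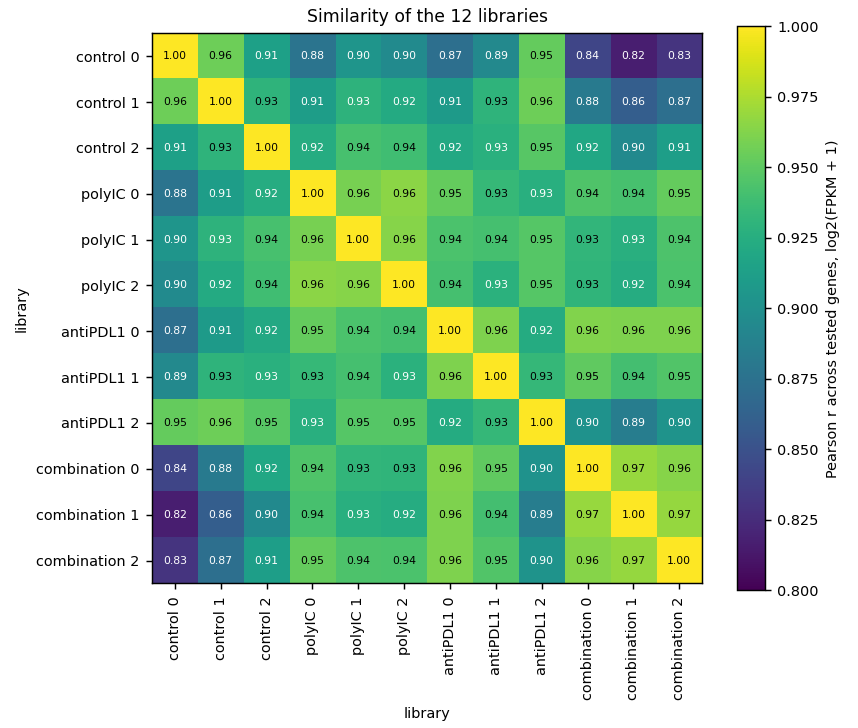
Pearson correlation between each pair of the 12 libraries, across the genes tested, on the log2(FPKM + 1) scale. Both axes list the libraries by group and replicate, and colour and number give the correlation; antiPDL1 replicate 2 lies closer to the control libraries (mean 0.952) than to its own group (mean 0.928).

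Few genes separated the treatments beyond the spread of the replicates. A gene was tested when 3 or more of the 12 libraries reached 1 FPKM. Of the 11978 such genes, 18 (0.15%) had a limma adjusted p under 0.05. PolyIC was the higher group for 17 of them (0.142%) and the antibody for 1 (0.00835%). With quantile normalization the numbers were 14 and 4, and with median-of-ratios rescaling they were 19 and 7. Unadjusted, 1204 genes (10.1%) had a limma p under 0.05, of which 715 (5.97%) were higher with polyIC and 489 (4.08%) higher with the antibody. The libraries of the 2 groups did not overlap for 1889 genes (15.8%), with polyIC above for 1041 (8.69%) and the antibody above for 848 (7.08%). The median log2 difference over all genes was -0.01. All log2 differences are polyIC minus antiPDL1 on the log2(FPKM + 1) scale, which understates the change of low genes. In a set of 40 chosen panel genes, 13 reached 0.1 in a two-sided exact permutation test, the smallest p that 3 against 3 libraries allow. That p is reached only where the groups do not overlap, which held for 15.8% over all genes. The panel was not drawn at random, so these shares are not compared. Because the cells were measured in bulk, more cells of a type and more RNA per cell cannot be told apart in any of these differences.

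Genes of NK cells were the clearest group on the polyIC side. Klrc1 encodes NKG2A, an inhibitory lectin-like receptor of NK cells and some CD8 T cells that recognizes Qa-1. It was at 113, 96.4 and 122 FPKM in the polyIC libraries and at 18.4, 32.5 and 31.0 FPKM in the antiPDL1 libraries. The lowest polyIC library was thus well above the highest antibody library. The mean of 110.2 ± 12.7 FPKM (SD, n = 3) against 27.3 ± 7.72 FPKM (SD, n = 3) was a 4.04-fold difference (log2 2.01 ± 0.32 SE, limma adjusted p = 0.0382). Control libraries were at 19.6 to 47.3 FPKM and combination libraries at 29.6 to 47.5 FPKM, and every one of them was below the polyIC libraries.

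Klrc3, which encodes the related receptor NKG2E, was lower in level but showed the same separation. It was at 4.18, 7.79 and 4.61 FPKM with polyIC and at 0.278, 0.968 and 1.10 FPKM with the antibody (log2 1.86 ± 0.26 SE, limma adjusted p = 0.0229). Sh2d1b2 encodes an SH2-domain adaptor of the EAT-2 family, which acts downstream of SLAM-family receptors in NK cells. Its values were 3.68, 8.61 and 4.97 FPKM with polyIC and 0, 0.278 and 0.376 FPKM with the antibody (log2 2.42 ± 0.29 SE, limma adjusted p = 0.0101). Sh2d1b2 stayed under 1.3 FPKM in every control and combination library as well. The Klr genes and Sh2d1b2 have close copies in the mouse genome, and how shared reads were divided among copies is not given in the sources used here, so single members of these families are uncertain.

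Of 27 listed NK cell markers and receptors, 26 were tested, and Klrc1 was the member that passed. The list's median log2 difference was 1.53, beside -0.01 over all genes. The polyIC libraries were all above the antibody libraries for 19 members (8.69% over all genes). An unadjusted limma p under 0.05 was found for 22 on the polyIC side (5.97% over all genes), with 0 on the other. Leaving out antiPDL1 replicate 2, 4 members passed, all higher with polyIC (1.12% over all genes). Leaving out antiPDL1 replicate 0, 0 passed (0.342% over all genes). Klra8, which encodes the activating receptor Ly49H, was at 41.9, 76.1 and 87.0 FPKM with polyIC and at 6.27, 13.8 and 7.32 FPKM with the antibody (log2 2.78 ± 0.54 SE, limma adjusted p = 0.0782). Ncr1, which encodes the NK cell receptor NKp46, was at 73.0, 145 and 106 FPKM with polyIC and at 12.3, 48.4 and 32.7 FPKM with the antibody (log2 1.90 ± 0.52 SE, limma adjusted p = 0.216). Neither of these receptors passed the threshold, although in both the groups lay apart. Klra3, another member of the Ly49 family, had a log2 difference of 2.09 ± 0.41 SE (limma adjusted p = 0.0782). At the other end of the list were Tyrobp, an adaptor shared with myeloid cells, with a log2 difference of -0.16, and Xcl1, a chemokine of NK and CD8 T cells, with 0.36. These 2 members were named after their values were seen. Summed over the list, the FPKM of the polyIC libraries were 3847 to 4847 and those of the antibody libraries 2868 to 3792, a sum in which Tyrobp and other abundant members weigh most.

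Most of the listed cytotoxic and T cell genes had higher means with polyIC. The antiPDL1 library of replicate 0 was inside the polyIC range for Cd8a and Pdcd1 but below it for Gzma, Prf1 and Tox. Gzma, which encodes the protease granzyme A of NK and cytotoxic T cells, was at 1841, 3147 and 2226 FPKM with polyIC. In the antibody libraries it was at 494, 610.2 and 243 FPKM (log2 2.48 ± 0.45 SE, limma adjusted p = 0.0567). The groups lay far apart, yet the gene did not pass. Prf1, which encodes the pore-forming protein perforin, was at 77.4, 98.6 and 76.3 FPKM against 54.2, 38.6 and 18.2 FPKM (log2 1.28 ± 0.37 SE, limma adjusted p = 0.255). Cd8a, a defining gene of CD8 T cells, was at 218, 131 and 149.8 FPKM with polyIC and at 177, 37.8 and 38.4 FPKM with the antibody (log2 1.34 ± 0.53 SE, limma adjusted p = 0.424). The value of antibody replicate 0 fell among the polyIC values, and the other antibody libraries were far below it. Pdcd1, which encodes PD-1, was at 197, 76.3 and 93 FPKM with polyIC and at 153, 13.2 and 15.7 FPKM with the antibody, again with replicate 0 inside the polyIC range. Tox, a transcription factor of chronically stimulated T cells, was at 97.1, 55.2 and 65.6 FPKM with polyIC and at 48.0, 7.76 and 13.3 FPKM with the antibody (log2 1.97 ± 0.50 SE, limma adjusted p = 0.186).

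None of the 24 tested genes of CD8 T cell and cytotoxic effector function passed. Their median log2 difference was 1.01, and the groups lay apart for 6 members, all higher with polyIC (8.69% over all genes). An unadjusted limma p under 0.05 was found for 12, also higher with polyIC (5.97% over all genes). For 20 inhibitory receptor and exhaustion genes the median was 0.86 and 0 passed. The groups lay apart for 7 of these on the polyIC side and for 1 on the antibody side (7.08% over all genes). Of the 20 genes, 12 had an unadjusted limma p under 0.05, all higher with polyIC. When antiPDL1 replicate 2 was left out, 1 gene of each list passed (1.12% over all genes on the polyIC side), and the medians were 0.74 and 0.76. Without antiPDL1 replicate 0, 5 genes of each list passed (over all genes 43, or 0.359%, then passed, 41 or 0.342% higher with polyIC and 2 or 0.0167% higher with the antibody), and the medians were 1.38 and 1.27. Pdcd1 then had a log2 difference of 2.88, Tox 2.68, Cd8a 2.07 and Gzmk 2.50. Ifng, the interferon gamma gene itself, did not separate the treatments: it was at 35.2, 34.8 and 21.6 FPKM with polyIC and at 37.8, 37.2 and 19.1 FPKM with the antibody, a log2 difference of -0.01 with a 95% interval from -0.75 to 0.73. Its sign changed with the scaling, being 0.073 under quantile normalization. Cd4 was at 36.9 to 40.2 FPKM and 35.3 to 44.3 FPKM in the same order. Of 24 T cell identity genes, 22 had a positive log2 difference, the median was 0.51 and 0 passed. For 5 the groups lay apart and 3 had an unadjusted limma p under 0.05, all higher with polyIC (8.69% and 5.97% over all genes). Of 15 naive and memory-precursor T cell genes, 11 had a positive log2 difference and the median was 0.33. Among these 0 passed and 0 had an unadjusted limma p under 0.05. Foxp3, the defining transcription factor of regulatory T cells, was at 9.54, 6.51 and 7.57 FPKM with polyIC and at 4.77, 2.24 and 3.32 FPKM with the antibody (log2 1.02 ± 0.33 SE, limma adjusted p = 0.31). The 14 regulatory T cell genes tested were mixed, with 9 positive and 5 negative log2 differences, a median of 0.41 and 0 that passed. The groups lay apart for 2 on the polyIC side and 1 on the antibody side (8.69% and 7.08% over all genes). An unadjusted limma p under 0.05 was found for 4 and 1 in the same order (5.97% and 4.08% over all genes).

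Granule genes that are made early in neutrophil development were higher with polyIC. Elane, which encodes neutrophil elastase, was at 2.39, 4.21 and 4.51 FPKM with polyIC and at 0.131, 0.481 and 0.22 FPKM with the antibody (log2 1.86 ± 0.22 SE, limma adjusted p = 0.0101). Mpo, which encodes myeloperoxidase, was at 1.82, 6.25 and 4.09 FPKM and at 0.104, 0.296 and 0.2002 FPKM in the same order (log2 1.97 ± 0.28 SE, limma adjusted p = 0.0229). Both genes stayed under 0.8 FPKM in the control and combination libraries, so that the polyIC group stood apart from the other 9 libraries. Higher in level were the genes of later granules. Ltf, which encodes lactoferrin, was at 71.8, 42.0 and 32.2 FPKM with polyIC and at 0.78, 4.27 and 9.92 FPKM with the antibody (log2 3.33 ± 0.58 SE, limma adjusted p = 0.0531). Ngp, a neutrophil granule protein gene, was at 272, 149 and 134 FPKM against 2.13, 14.0 and 33.5 FPKM (log2 3.91 ± 0.78 SE, limma adjusted p = 0.0826). These late genes did not pass, and their antibody libraries differed among themselves by more than 10-fold.

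Of 25 neutrophil genes tested, Elane and Mpo passed, the groups lay apart for 12, all higher with polyIC (beside 8.69% over all genes), and the median log2 difference was 0.81. Without antiPDL1 replicate 2, 7 passed on the polyIC side and 1 on the antibody side (1.12% and 1.7% over all genes). Leaving out antiPDL1 replicate 0, 2 passed, both higher with polyIC (0.342% over all genes). The median was 0.61 without replicate 2, 0.59 without replicate 0 and 1.27 without replicate 1. Other neutrophil genes overlapped between the groups. S100a8, which encodes an abundant alarmin, was at 2545, 2229 and 1563 FPKM with polyIC and at 948, 2236 and 773 FPKM with the antibody, so the ranges overlapped. Csf3r, the receptor for the growth factor G-CSF, and Cxcr2, a chemokine receptor, named after their values were seen, had log2 differences of -0.52 and -0.37.

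**Figure D2:**
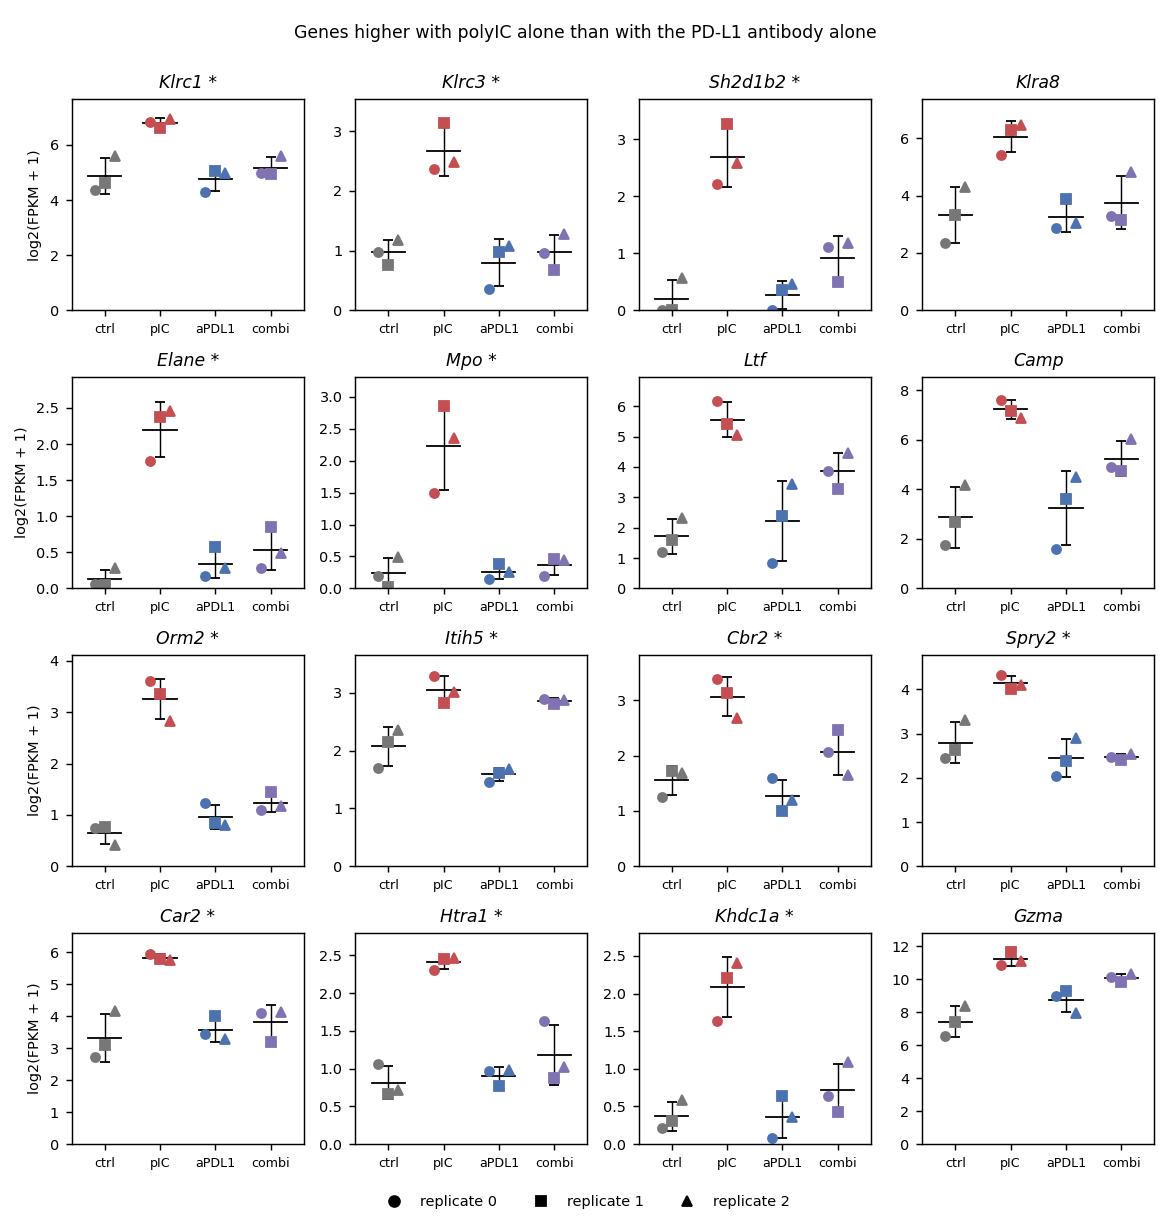
FPKM on the log2(FPKM + 1) axis for 16 genes that were higher with polyIC (pIC) than with the antibody (aPDL1), with control (ctrl) and combination (combi) libraries for orientation. Symbols are libraries by replicate, lines and bars are the mean and SD of 3 libraries, and an asterisk marks a limma adjusted p under 0.05; for Elane and Mpo the polyIC libraries stand above all others, whereas the Itih5 values of the combination lie beside those of polyIC.

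The remaining genes that passed on the polyIC side came from several functions. Orm2 encodes alpha-1-acid glycoprotein 2, an acute-phase protein chiefly made by hepatocytes. It was at 11.2, 9.19 and 6.16 FPKM with polyIC and at 1.35, 0.796 and 0.738 FPKM with the antibody, a 9.19-fold difference of the means (log2 2.31 ± 0.21 SE, limma adjusted p = 0.0033). Beside it, the 30 listed hepatocyte genes had a median log2 difference of 1.12, and 0 of them passed. Alb overlapped between the groups (log2 1.36 ± 0.65 SE, limma adjusted p = 0.521). The summed level of all 30 listed hepatocyte genes was 3791 to 5095 FPKM with polyIC and 1574 to 5733 FPKM with the antibody, and no member was at 0. In the control libraries this sum was 2863 to 10080 FPKM while Orm2 was at 0.329 to 0.703 FPKM. With the mean of the hepatocyte genes as a term in the fit, the log2 difference of Orm2 was 2.17. Reads of Orm2 can be shared with its close copies in the Orm family.

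Itih5, which encodes a heavy chain of the inter-alpha-trypsin inhibitors, was at 8.82, 6.04 and 7.08 FPKM with polyIC and at 1.76, 2.06 and 2.21 FPKM with the antibody (log2 1.45 ± 0.18 SE, limma adjusted p = 0.0152). The combination libraries, at 6.01 to 6.44 FPKM, lay inside the polyIC range. Cbr2, a carbonyl reductase gene, was at 9.44, 7.74 and 5.42 FPKM against 2.02, 1.01 and 1.29 FPKM (log2 1.80 ± 0.26 SE, limma adjusted p = 0.0229). Spry2, which encodes a feedback inhibitor of receptor tyrosine kinase signalling, was at 18.9, 15.0 and 16.2 FPKM against 3.15, 4.21 and 6.47 FPKM (log2 1.69 ± 0.25 SE, limma adjusted p = 0.0234). For Spry2 the combination libraries, at 4.28 to 4.84 FPKM, lay with the antibody group.

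Car2, which encodes carbonic anhydrase 2, an enzyme of red cells and of several other cell types, was at 61.0, 53.8 and 52.7 FPKM with polyIC and at 9.85, 15.0 and 8.75 FPKM with the antibody (log2 2.25 ± 0.36 SE, limma adjusted p = 0.0382). Among the 8 erythroid genes tested it was the member that passed. The list's summed level, which includes Car2 itself, was 88.9 to 107 FPKM with polyIC and 31.8 to 57.1 FPKM with the antibody, and its part in the Car2 difference was not tested. Alas2, the haem synthesis enzyme of red cell precursors, was at 3.03, 3.39 and 2.20 FPKM with polyIC and at 0.955, 0.471 and 2.11 FPKM with the antibody (log2 0.89 ± 0.34 SE, limma adjusted p = 0.401). Tfrc, the transferrin receptor gene, was lower with polyIC in all libraries (log2 -0.42 ± 0.18 SE, limma adjusted p = 0.482).

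Other genes passed outside the rule for named genes and are given because they complete the count. Htra1, a secreted serine protease gene, was at 3.94, 4.46 and 4.54 FPKM with polyIC and at 0.958, 0.699 and 0.973 FPKM with the antibody (log2 1.5 ± 0.20 SE, limma adjusted p = 0.0187). Khdc1a, which encodes a KH-domain protein, was at 2.11, 3.6 and 4.31 FPKM against 0.06, 0.563 and 0.283 FPKM (log2 1.72 ± 0.24 SE, limma adjusted p = 0.0229). The 5 others were predicted or clone-named genes, Gm12596, Gm156, Gm17745, Gm4956 and A430046D13Rik, with log2 differences of 1.05 to 4.41. Gm156 varied most among them, at 28.4, 6.20 and 66.0 FPKM with polyIC and at 0.0662, 0.258 and 0.113 FPKM with the antibody.

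Just short of the threshold on the polyIC side were Epcam, Calcb and Chn2, each with a limma adjusted p of 0.0531. Epcam, an epithelial adhesion molecule gene, was at 8.17, 6.00 and 5.75 FPKM with polyIC and at 2.78, 2.07 and 3.06 FPKM with the antibody. Calcb, which encodes the neuropeptide beta-CGRP, was at 28.2, 3.11 and 16.7 FPKM against 0.704, 0.0699 and 0.218 FPKM. Chn2, a Rac GTPase-activating protein gene, was at 23.9, 19.1 and 17.1 FPKM against 11.2, 11.7 and 8.95 FPKM, the smallest of these differences at log2 0.85 ± 0.15 SE.

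On the antibody side, the gene that passed was a dendritic cell gene. Mgl2 encodes the lectin CD301b of conventional dendritic cells of the second type and of some macrophages. It was at 2.64, 7.83 and 7.31 FPKM in the antiPDL1 libraries and at 0.379, 0.943 and 0.647 FPKM in the polyIC libraries, a 9.03-fold difference of the means (log2 -1.97 ± 0.31 SE, limma adjusted p = 0.034). Control libraries were at 8.44 to 12.7 FPKM and combination libraries at 0.348 to 0.844 FPKM, so the polyIC-treated groups were both low. Ccl22 and Ccl17 encode ligands of the receptor CCR4 and are made by mature dendritic cells. Ccl22 was at 24.2, 23.2 and 25.6 FPKM with the antibody and at 2.21, 6.36 and 2.36 FPKM with polyIC (log2 -2.56 ± 0.47 SE, limma adjusted p = 0.0599). Ccl17 was at 13.1, 11.9 and 8.76 FPKM against 1.45, 3.31 and 2.99 FPKM (log2 -1.80 ± 0.33 SE, limma adjusted p = 0.0567). In both genes the antibody libraries stayed close together and lay clear of polyIC, but neither passed.

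Fscn1, which encodes the actin-bundling protein fascin of mature dendritic cells, was at 18.2, 15.0 and 13.6 FPKM with the antibody and at 4.64, 6.65 and 4.78 FPKM with polyIC (log2 -1.39 ± 0.28 SE, limma adjusted p = 0.0829). Cd83, a maturation marker, was at 88.2, 42.9 and 102 FPKM against 25.6, 31.0 and 24.0 FPKM (log2 -1.41 ± 0.29 SE, limma adjusted p = 0.0874). Il12b, the gene of the p40 subunit shared by interleukins 12 and 23, was at 6.55, 4.37 and 6.15 FPKM against 0.973, 1.98 and 0.802 FPKM (log2 -1.59 ± 0.31 SE, limma adjusted p = 0.0808). Itgae, which encodes CD103 of cross-presenting dendritic cells and tissue T cells, was at 9.54, 13.9 and 9.21 FPKM against 4.95, 6.26 and 4.96 FPKM (log2 -0.88 ± 0.21 SE, limma adjusted p = 0.146).

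Of 23 conventional dendritic cell genes, all tested, Mgl2 passed, and the antibody libraries were all above the polyIC libraries for 12 (beside 7.08% over all genes). The median log2 difference was -0.48, with 22 members below 0. On the antibody side 10 had an unadjusted limma p under 0.05 (4.08% over all genes). When antiPDL1 replicate 2 was left out, 4 members passed, all higher with the antibody (1.7% over all genes). Without antiPDL1 replicate 0, 1 passed on that side (0.0167% over all genes). The pan-dendritic genes Flt3, Itgax and Zbtb46, named after their values were seen, had log2 differences of 0.04, -0.03 and -0.25. The summed level of the list was 717 to 947 FPKM with polyIC and 1098 to 1226 FPKM with the antibody. By contrast, 18 plasmacytoid dendritic cell genes had a median of 0.20, and for 0 of them did the groups lie apart. Their defining gene Siglech was at 49.0, 115 and 77.5 FPKM with polyIC and at 25.7, 44.0 and 95.9 FPKM with the antibody.

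Other named genes on the antibody side did not pass. Il1rn, which encodes the interleukin 1 receptor antagonist, was at 217, 85.3 and 57.0 FPKM with the antibody and at 15.1, 26.1 and 16.0 FPKM with polyIC (log2 -2.40 ± 0.41 SE, limma adjusted p = 0.0531). Nfkbia, the gene of an inhibitor of NF-kappaB that is itself induced by that factor, was at 192, 165 and 131 FPKM against 98.3, 93.7 and 84.3 FPKM (log2 -0.80 ± 0.16 SE, limma adjusted p = 0.0855). Ifngr2, a chain of the interferon gamma receptor, was at 65.3, 68.5 and 57.1 FPKM against 38.7, 42.7 and 32.5 FPKM (log2 -0.73 ± 0.15 SE, limma adjusted p = 0.095). For all 3 genes the groups lay apart, which the rule for naming them required. Ier3, Mreg and Arrdc4 had log2 differences of -1.34, -1.23 and -0.73, with limma adjusted p of 0.0567, 0.0599 and 0.0829.

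Among 18 inflammatory cytokine genes, 0 passed and 8 had an unadjusted limma p under 0.05, all higher with the antibody (4.08% over all genes). Their median log2 difference was -0.53, and the groups lay apart for 6, all higher with the antibody (7.08% over all genes). There were 3 members that passed without antiPDL1 replicate 2 and 1 without replicate 0, beside 1.7% and 0.0167% over all genes on the antibody side. Ptgs2, which encodes cyclooxygenase 2, was at 6.42, 2.81 and 1.13 FPKM with the antibody and at 0.333, 0.523 and 0.196 FPKM with polyIC (log2 -1.54 ± 0.35 SE, limma adjusted p = 0.134). Antibody replicate 0 held the highest value here and in Il1rn, and replicate 2 the lowest.

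**Figure D3:**
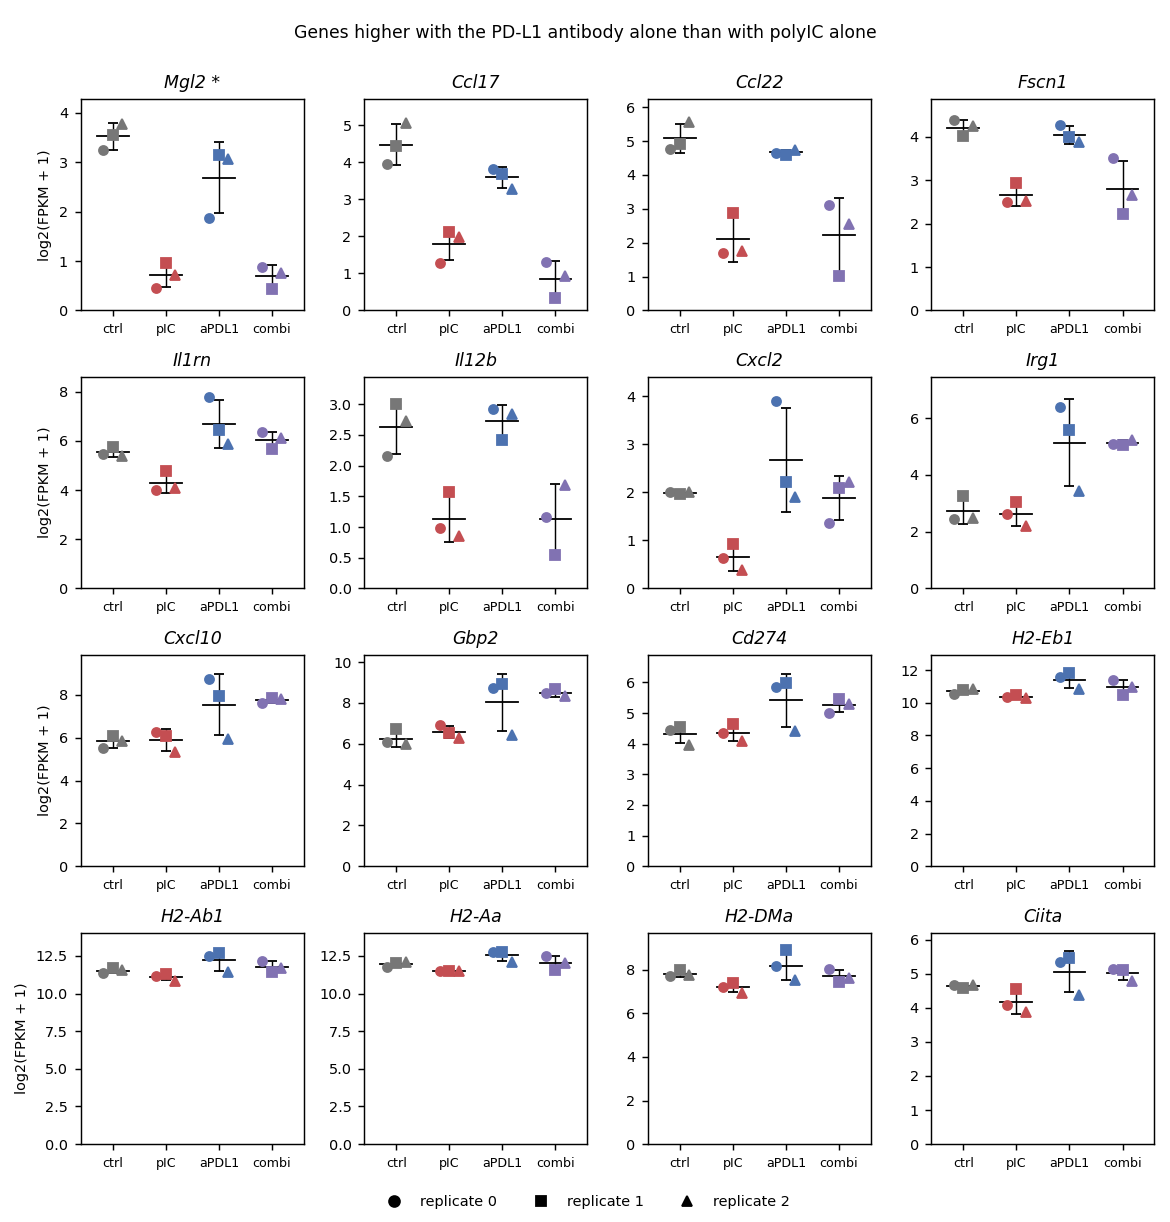
FPKM on the log2(FPKM + 1) axis for 16 genes with higher means under the antibody (aPDL1) than under polyIC (pIC), with control (ctrl) and combination (combi) libraries for orientation. Symbols are libraries by replicate, lines and bars are the mean and SD of 3 libraries, and the asterisk marks a limma adjusted p under 0.05; Ccl22 is at 23.2 to 25.6 FPKM in all antibody libraries, whereas for Gbp2, Cxcl10 and Cd274 the triangle of antibody replicate 2 lies near the polyIC libraries.

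The genes that interferon gamma induces were higher in antiPDL1 replicates 0 and 1 and near the polyIC level in replicate 2. Gbp2, a guanylate-binding protein gene, was at 421, 488 and 85.7 FPKM with the antibody and at 118, 92.0 and 77.9 FPKM with polyIC. Cxcl10, which encodes a chemokine for CXCR3-bearing T and NK cells, was at 419, 243 and 60.6 FPKM against 76.6, 66.5 and 38.6 FPKM. In both genes the groups overlapped because of replicate 2 alone. Their log2 differences were -1.45 ± 0.52 SE for Gbp2 and -1.64 ± 0.55 SE for Cxcl10, with limma adjusted p of 0.376 and 0.33.

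Cd274, the gene of the antibody's target PD-L1, followed the same distribution. It was at 56.8, 61.6 and 20.5 FPKM with the antibody and at 19.3, 24.1 and 16.2 FPKM with polyIC (log2 -1.05 ± 0.35 SE, limma adjusted p = 0.34). Control libraries were at 14.6 to 22.5 FPKM and combination libraries at 31.3 to 42.8 FPKM. Irg1, which encodes the itaconate-producing enzyme of activated macrophages, was at 83.7, 46.9 and 9.73 FPKM with the antibody and at 5.17, 7.23 and 3.54 FPKM with polyIC (log2 -2.52 ± 0.58 SE, limma adjusted p = 0.138). Here even replicate 2 lay above the polyIC range. Among 11 genes for ligands of the PD-1 and CD28 families the median was -0.48 and 0 passed. On the antibody side 4 had an unadjusted limma p under 0.05 (4.08% over all genes). Without antiPDL1 replicate 2, 1 passed, and without replicate 0, 0 passed. Cd80, a ligand of CD28 and CTLA-4, was at 17.4, 12 and 13.6 FPKM with the antibody and at 9.39, 7.50 and 9.26 FPKM with polyIC (log2 -0.65 ± 0.20 SE, limma adjusted p = 0.27).

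Of 10 tested MHC class II genes, whose products present peptides to CD4 T cells, 8 had higher means with the antibody. The others were H2-Oa and H2-Ob, named after their values were seen, with log2 differences of 0.02 and 0.25. H2-Aa was at 6909, 7086 and 4419 FPKM with the antibody and at 2946, 2924 and 2885 FPKM with polyIC (log2 -1.04 ± 0.29 SE, limma adjusted p = 0.233). H2-Ab1 was at 5844, 6679 and 2752 FPKM against 2281, 2470.0 and 1856 FPKM (log2 -1.12 ± 0.34 SE, limma adjusted p = 0.279). Ciita, the master regulator of this gene set, was at 39.5, 43.2 and 19.9 FPKM against 15.8, 22.5 and 13.6 FPKM, where replicate 2 fell inside the polyIC range. None of the 10 tested members passed, and 6 had an unadjusted limma p under 0.05 on the antibody side (4.08% over all genes). For 5 the groups lay apart, all higher with the antibody (7.08% over all genes), and the median log2 difference was -0.95. The list's summed level was 16550.0, 18400.0 and 9549 FPKM in the antibody libraries, against 6418 to 7333 FPKM with polyIC and 8112 to 9958 FPKM in control.

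Of 33 genes tested in the list of interferon gamma induced genes, 0 passed. On the antibody side 18 had an unadjusted limma p under 0.05 (4.08% over all genes). For 6 the groups lay apart, all higher with the antibody (7.08% over all genes). Their median log2 difference was -0.86. The summed level of the list was 3912, 4825 and 1423 FPKM in antibody replicates 0, 1 and 2, and 1275 to 1729 FPKM in the polyIC libraries. Without antiPDL1 replicate 2, 21 of the 33 passed, all higher with the antibody, as did 6 of 10 MHC class II genes and 8 of 22 genes of MHC class I and the immunoproteasome. In that fit 338 genes (2.82%) passed over the whole table, 134 (1.12%) higher with polyIC and 204 (1.7%) higher with the antibody. The log2 differences were then -2.25 for Gbp2, -2.43 for Cxcl10, -1.55 for Cd274, -1.51 for H2-Ab1 and -3.38 for Irg1. When antiPDL1 replicate 0 was left out instead, 0 members of these lists passed (0.0167% over all genes on the antibody side). The median of the interferon gamma list was then -0.75.

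The promoters of some of these genes are printed because members of the list varied together among the antibody libraries, and to show the letters that interferon and NF-kappaB factors are known to bind. Motifs were searched on both strands in RefSeq windows from 250 bases before to 50 bases after a gene's start on GRCm38.p6, a later build than the mm9 of the deposited values. The gamma-activated sequence (GAS) was searched as TTCNNNGAA, the interferon-stimulated response element (ISRE) as GAAA, any 2 bases and GAAA, and the kappaB motif as GGG, any 3 bases and TTCC. Matches of different motifs may overlap. Each stretch reads 5′ to 3′ on the strand of the gene, and capitals mark the bases of matches. In Gbp5 the capitals are a kappaB and a GAS match, in Igtp a GAS and an ISRE match, in Cxcl10 an ISRE and 2 kappaB matches, and in Cxcl2 and Nfkbia kappaB matches.
Gbp5 (chr3:142496834-142496903, plus strand): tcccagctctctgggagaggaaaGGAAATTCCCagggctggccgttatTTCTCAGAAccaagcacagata
Igtp (chr11:58199456-58199535, plus strand): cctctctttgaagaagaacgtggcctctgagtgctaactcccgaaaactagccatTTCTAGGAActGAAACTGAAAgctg
Cxcl10 (chr5:92348970-92349119, minus strand): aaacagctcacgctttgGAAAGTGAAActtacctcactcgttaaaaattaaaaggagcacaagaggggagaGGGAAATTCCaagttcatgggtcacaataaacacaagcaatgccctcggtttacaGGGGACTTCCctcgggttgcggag
Cxcl2 (chr5:90903779-90903848, plus strand): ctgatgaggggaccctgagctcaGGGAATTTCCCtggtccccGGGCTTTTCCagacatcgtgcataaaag
Nfkbia (chr12:55492658-55492737, minus strand): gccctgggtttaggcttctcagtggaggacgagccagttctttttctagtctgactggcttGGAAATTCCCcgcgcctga

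All these stretches lie upstream of the gene's start. The GAS match of Gbp5 spans bases 52 to 44 before the start, and in Igtp the GAS match at 45 to 37 is followed by the ISRE match at 34 to 25. Windows on chr18 and windows that were not 300 bases long were left out of the search. A window was kept for 9120 of the 11978 genes tested, and 7.16% of them held a GAS match, 3.31% an ISRE match and 6.39% a kappaB match. Of the 33 interferon gamma genes 19 had a window, with a GAS match in 8 (42.1%), an ISRE match in 13 (68.4%) and a kappaB match in 4 (21.1%). Among the NK cell genes 22 had a window, with matches in 2, 1 and 1 in the same order. High shares were not particular to the interferon gamma list. Of 28 type I interferon stimulated genes with a window, 7 (25.0%), 16 (57.1%) and 5 (17.9%) held a match. Of 16 genes of MHC class I and the immunoproteasome 2, 5 and 2 did, and of 8 MHC class II genes 1, 0 and 0. The matches are letters in a window and describe no binding. Gbp5 itself was at 91.0, 126 and 24.3 FPKM with the antibody and at 30.0, 29.7 and 21.9 FPKM with polyIC, and Igtp at 127, 201 and 56.7 FPKM against 74.6, 67.7 and 50.1 FPKM. Both genes were named after their values were seen, and in both replicate 2 of the antibody fell inside the polyIC range.

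Type I interferon stimulated genes were not higher with polyIC in these cells. Isg15, a ubiquitin-like modifier, was at 110.0, 96.2 and 75.3 FPKM with polyIC and at 330, 382 and 44.4 FPKM with the antibody (log2 -0.93 ± 0.63 SE, limma adjusted p = 0.678). Ifit1, which binds viral RNA, was at 20.1, 20.2 and 19.0 FPKM with polyIC and at 35.9, 44.2 and 11.5 FPKM with the antibody (log2 -0.41 ± 0.37 SE, limma adjusted p = 0.765). In both genes antibody replicates 0 and 1 were above polyIC and replicate 2 was below it. Of 38 such genes 0 passed, 37 had a negative log2 difference and the median was -0.43. An unadjusted limma p under 0.05 was found for 7 on the antibody side and 1 on the polyIC side (4.08% and 5.97% over all genes). The groups lay apart for 9, all higher with the antibody (7.08% over all genes). Oasl2, an oligoadenylate synthetase-like gene, was at 33.7, 31.8 and 26.5 FPKM with polyIC and at 64.8, 111 and 34.1 FPKM with the antibody (log2 -1.02 ± 0.34 SE, limma adjusted p = 0.322). Without antiPDL1 replicate 2, 5 of the 38 passed, all higher with the antibody (1.7% over all genes), and without replicate 0, 0 passed.

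For the sensors of polyIC themselves the ranges of the 2 groups overlapped. Tlr3 was at 7.69, 12.7 and 15.0 FPKM with polyIC and at 7.93, 17.1 and 19.3 FPKM with the antibody. Ifih1, the MDA5 gene, was at 18.7, 17.8 and 15.3 FPKM against 27.5, 27.4 and 16.3 FPKM (log2 -0.40 with a 95% interval from -0.98 to 0.18). Of 25 genes for double-stranded RNA sensors and adaptors, 0 passed and 0 had an unadjusted limma p under 0.05, and the median was -0.29. The median was -0.50 without antiPDL1 replicate 2, where 2 passed, both higher with the antibody (1.7% over all genes). It was -0.28 without replicate 0, where 0 passed.

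Chemokine genes lay on both sides. Ccl8, a monocyte and T cell attractant, was at 74.8, 64.8 and 86.9 FPKM with polyIC and at 35.2, 11.6 and 11.7 FPKM with the antibody (log2 2.08 ± 0.51 SE, limma adjusted p = 0.172). Cxcl13, the B cell attractant, went the other way, at 0.599, 4.09 and 3.71 FPKM with polyIC and at 7.23, 17.4 and 59.8 FPKM with the antibody (log2 -2.64 ± 0.69 SE, limma adjusted p = 0.193). Cxcl2, a neutrophil attractant, was at 0.545, 0.899 and 0.296 FPKM with polyIC and at 13.9, 3.63 and 2.71 FPKM with the antibody (log2 -2.02 ± 0.43 SE, limma adjusted p = 0.0986). Cxcl9 was at 81.0, 55.0 and 52.2 FPKM with polyIC and at 375, 156 and 61.5 FPKM with the antibody, so that replicate 2 overlapped polyIC. Of 25 chemokine genes 0 passed. An unadjusted limma p under 0.05 was found for 12 on the antibody side and 3 on the polyIC side (4.08% and 5.97% over all genes). The median was -0.95. Without antiPDL1 replicate 2, 7 were called on the antibody side (1.7% over all genes). Without antiPDL1 replicate 0, 3 were called on the polyIC side, namely Ccl3, Ccl4 and Ccl5, which are made by NK and T cells.

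In macrophage genes the antibody libraries spread widely. Clec4f, a lectin of Kupffer cells, was at 91.6, 493 and 315 FPKM with polyIC and at 291, 949.5 and 1835 FPKM with the antibody, with overlapping ranges (log2 -1.71 ± 0.94 SE, limma adjusted p = 0.597). Fabp7, a fatty acid binding protein of these cells, was at 35.8, 72.6 and 65.7 FPKM against 72.9, 192 and 317 FPKM, and the lowest antibody value touched the highest polyIC value. Spic, the transcription factor of iron-recycling macrophages, was higher with polyIC instead, at 76.5, 45.9 and 61.6 FPKM against 29.3, 34.1 and 32.2 FPKM (log2 0.90 ± 0.44 SE, limma adjusted p = 0.538). None of 22 Kupffer cell genes passed, and 3 had an unadjusted limma p under 0.05 on the antibody side, beside 4.08% over all genes. Their median of -0.65 was -0.06 without antiPDL1 replicate 2, -1.10 without replicate 0 and -1.27 with the hepatocyte gene mean as a term. Of 24 genes of tumour-associated and lipid-associated macrophages 0 passed, with 0 also without antiPDL1 replicate 0 and 1 without replicate 2. On the antibody side 7 of the 24 had an unadjusted limma p under 0.05 (4.08% over all genes). Among these Lpl, the lipoprotein lipase gene, was at 78.3, 101 and 84.0 FPKM with polyIC and at 166, 287 and 265 FPKM with the antibody (log2 -1.40 ± 0.45 SE, limma adjusted p = 0.301). Retnla, a gene of alternatively activated macrophages, was at 0.216, 0.381 and 0.729 FPKM against 2.44, 2.62 and 12.9 FPKM (log2 -1.96 ± 0.53 SE, limma adjusted p = 0.202).

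Hepatocyte genes were higher with polyIC than with antibody replicates 0 and 1. Ttr, which encodes transthyretin, was at 143, 167 and 144 FPKM with polyIC and at 43.8, 19.6 and 113 FPKM with the antibody (log2 1.69 ± 0.55 SE, limma adjusted p = 0.311). Of 30 such genes 0 passed, and 13 had an unadjusted limma p under 0.05, all on the polyIC side (5.97% over all genes). For 6 the groups lay apart, also on that side (8.69% over all genes), and the median log2 difference was 1.12. Without antiPDL1 replicate 2, whose summed level of 5733 FPKM was above that of all polyIC libraries, 7 passed (1.12% over all genes). Leaving out antiPDL1 replicate 0, 0 passed. Lyve1, a gene of sinusoidal and lymphatic endothelium, was at 21.3, 20.9 and 25.6 FPKM against 5.40, 3.41 and 9.64 FPKM (log2 1.81 ± 0.38 SE, limma adjusted p = 0.095). The part of hepatocyte RNA in the differences of the immune genes was not tested beyond the fit with the hepatocyte gene mean as a term. In that fit 9 genes passed, 7 of them shared with the 18 of the main fit. Klrc1, Klrc3, Mpo, Spry2 and Mgl2 were among the genes that no longer passed. The median was 1.88 for NK cell genes, 1.41 for neutrophil genes and -0.57 for interferon gamma genes. For MHC class I and immunoproteasome genes it was 0.02, beside -0.20 in the main fit.

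The groups overlapped in genes of B cells and of proliferation. For 21 B cell genes the median log2 difference was 0.16 and for 0 the groups lay apart. With 1 library left out at a time that median ran from -0.15 to 0.43. For 34 cell cycle genes the median was 0.11, 0 lay apart and 0 had an unadjusted limma p under 0.05. It ran from -0.30 without antiPDL1 replicate 2 to 0.40 without replicate 1. Mki67, a marker of dividing cells, was at 14.6, 13.9 and 9.96 FPKM against 10.5, 14.0 and 6.14 FPKM. Ribosomal protein genes had a median of 0.23 and genes of oxidative phosphorylation one of -0.25, with 0 of 33 and 0 of 26 at an unadjusted limma p under 0.05. These medians were -0.04 and -0.54 without antiPDL1 replicate 2. For 19 glycolysis genes the median was -0.40 and 0 passed. The median was -0.77 without antiPDL1 replicate 2, where 6 passed, all higher with the antibody (1.7% over all genes). It was -0.19 without replicate 0, where 0 passed. Slc2a1, the glucose transporter GLUT1, was at 17.0, 15.8 and 12.5 FPKM with polyIC and at 37.2, 36.9 and 17.9 FPKM with the antibody (log2 -0.92 ± 0.25 SE, limma adjusted p = 0.225). Its relative Slc2a3, which encodes GLUT3, was higher with polyIC, at 26.8, 27.0 and 18.4 FPKM against 13.2, 15.2 and 16.1 FPKM (log2 0.65 ± 0.20 SE, limma adjusted p = 0.279).

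**Figure D4:**
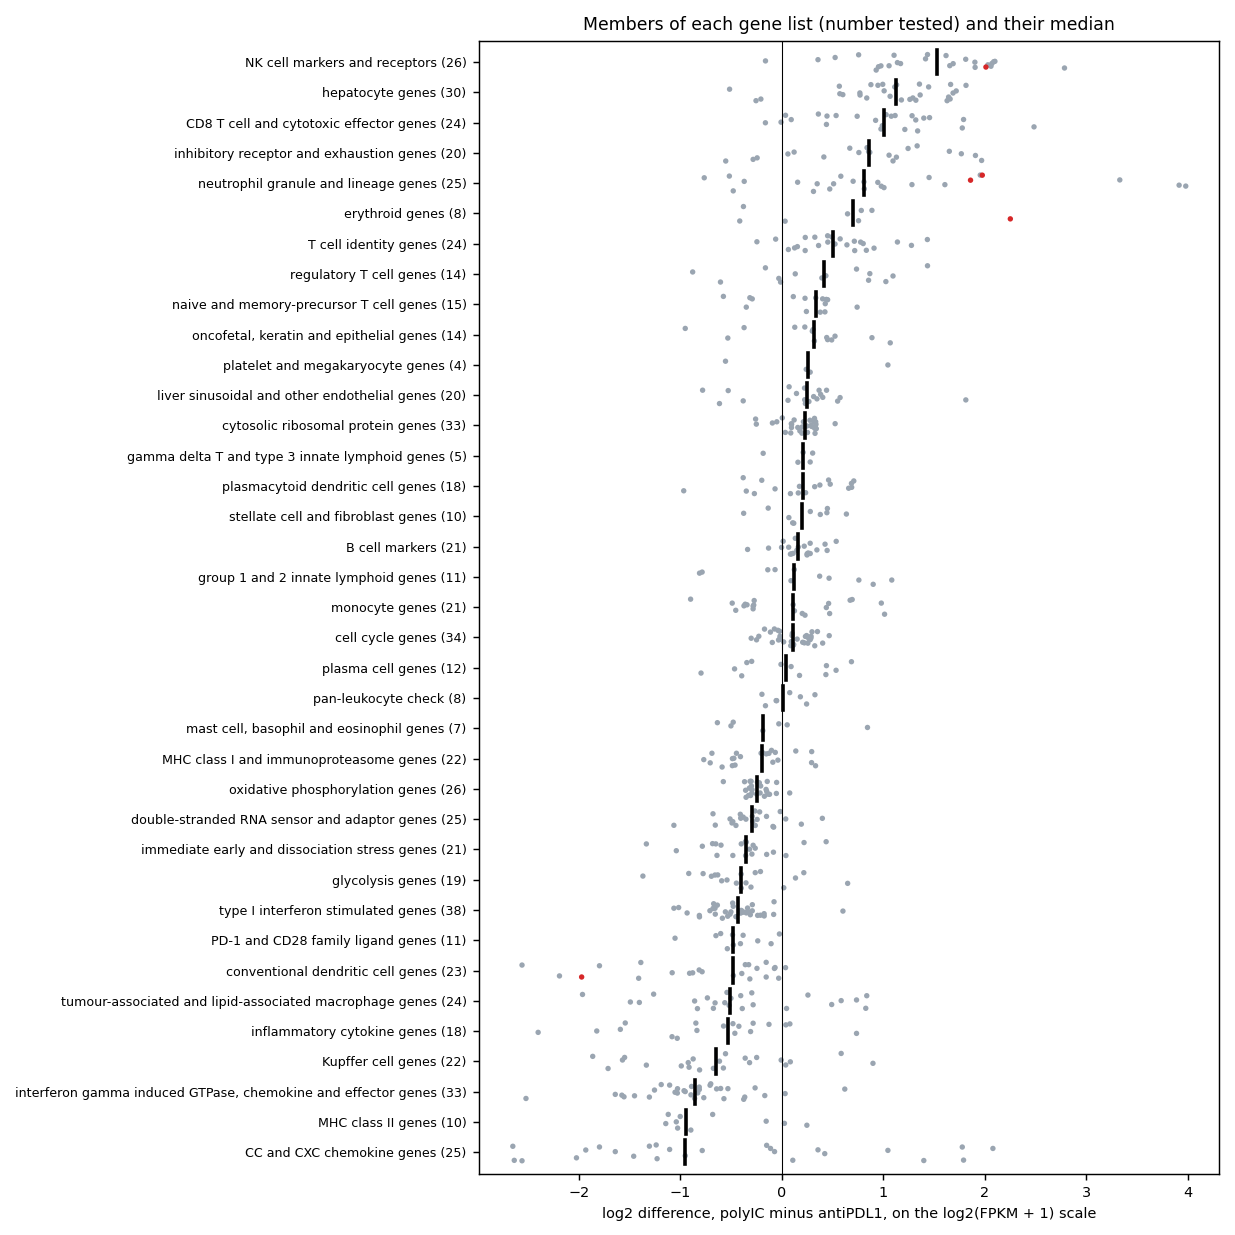
Log2 difference, polyIC minus antiPDL1, of each tested member of the gene lists; grey points are members, red points are members with a limma adjusted p under 0.05, and the black bar is the list's median. Lists are ordered by median, from NK cell genes (1.53) at the top to chemokine genes (-0.95) at the bottom.

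The 18 genes that passed kept their direction under all alternatives in which they were tested, but the calls depended on single libraries. Orm2 passed in all 12 fits that left out 1 library. Sh2d1b2 and Gm12596 passed in 11, Elane in 10, Itih5 and Klrc3 in 9, Htra1 and Khdc1a in 8, and Mpo, Cbr2, Gm156 and A430046D13Rik in 7. Gm4956 passed in 6, Spry2 in 5, Mgl2, Car2 and Gm17745 in 4, and Klrc1 in 3. The 3 fits in which Klrc1 passed were those without control replicate 0, without control replicate 2 and without antiPDL1 replicate 2. Leaving out polyIC replicate 2 left 1 gene in all, Orm2, and leaving out polyIC replicate 0 or 1, control replicate 1, combination replicate 2 or antiPDL1 replicate 1 left 6 to 11.

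**Figure D5:**
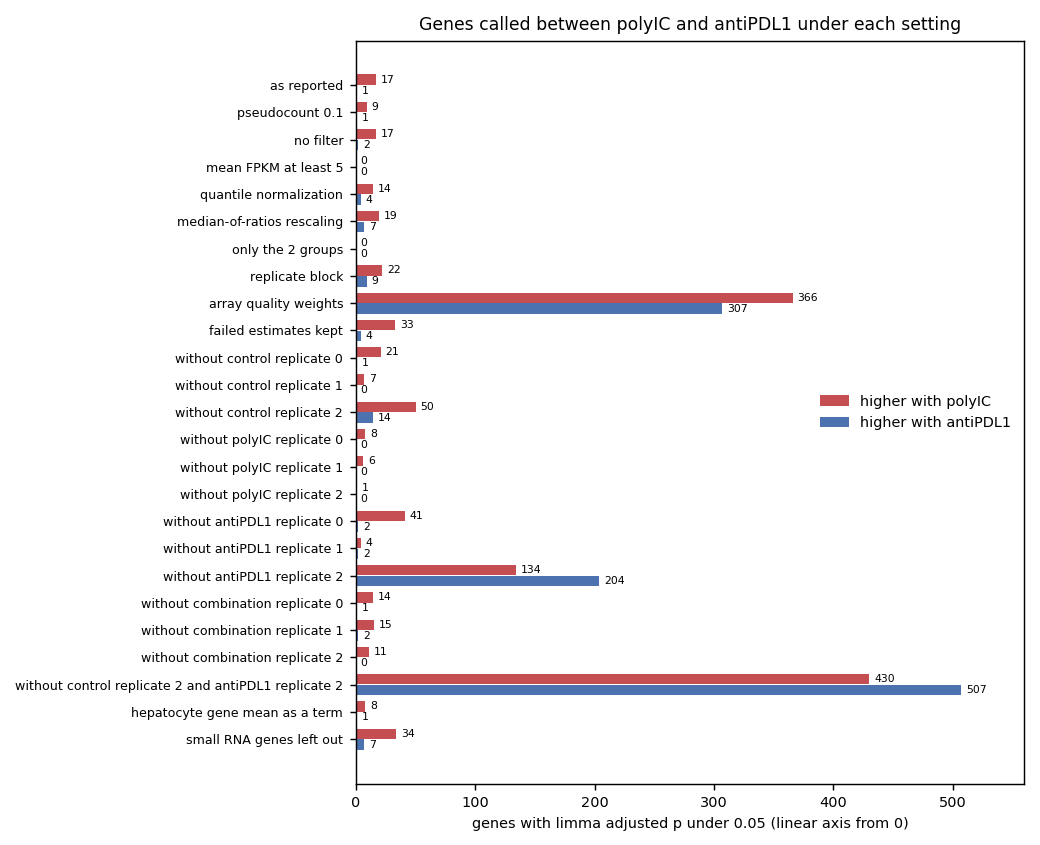
Number of genes with a limma adjusted p under 0.05 between polyIC and antiPDL1 under each alternative, on a linear axis from 0, with genes higher with polyIC in red and genes higher with the antibody in blue. The 17 and 1 genes as reported become 134 and 204 without antiPDL1 replicate 2, and 0 and 0 when the 6 libraries are fitted alone.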

How the data were processed

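The deposited table gave 1 value per gene and library for 24319 entries. The values were taken as FPKM that the authors made with Cuffdiff on mm9, per the submitters' processing notes; the unit rests on these notes and on the values, since the table does not name it. No source used here gives the Cuffdiff version, the aligner, the annotation or a scaling between libraries. Symbols matched current names for 23525 entries, older names for 684 and none for 110.

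Entries listed at 0 in a whole group but at 5 FPKM or more in every library of another group were left out. Genes that reached 1 FPKM in 3 or more of 12 libraries were kept, and log2(FPKM + 1) was fitted with limma 3.58.1 (limma-trend, two-sided) in R 4.3.3, with the 4 groups as the model and all 12 libraries fitted together. P-values were adjusted by Benjamini and Hochberg over all 11978 genes, with a threshold of 0.05. The fit was tested on simulated data. Exact permutation tests used numpy 2.4.6. Gene lists are described by counts and medians, without set tests.

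Named genes were the 12 largest differences in each direction that passed, with groups that did not overlap and a mean of at least 5 FPKM in the higher group, leaving out predicted, small RNA and antigen receptor segment genes. Where fewer passed, the smallest unadjusted p filled the 12 places under the same conditions. From each list, up to 3 members with the smallest p among those whose groups did not overlap were added. A panel of 40 genes was added without these conditions. For genes named by these rules outside the panel, groups that lay apart were thus a condition of the choice and are no result. Other genes named here, such as Camp in the plots, H2-DMa, Ccl3, Ccl4 and Ccl5, were chosen after their values were seen. A few genes that the rule names are not reported here. The comparison, the lists and the motifs were chosen with earlier results of these data known. Alternatives were another pseudocount, filter or scaling, the 6 libraries alone, a replicate block, array weights, and fits without single libraries.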

Additional observations from a re-analysis of the deposited data

How the results depend on the processing

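The count of 18 genes depended strongly on the processing. It was 10 with a pseudocount of 0.1, 0 with a filter at a mean of 5 FPKM (796 genes at an unadjusted limma p under 0.05), 0 with the 6 libraries alone (1250 unadjusted), 673 with array weights and 37 with the entries of failed estimates kept. Array weights give libraries that stand apart less weight. Without 1 library the count ranged from 1 to 338; it was 1 without polyIC replicate 2, 43 without antiPDL1 replicate 0 and 64 without control replicate 2. Added after seeing the data were a fit without control replicate 2 and antiPDL1 replicate 2 (937 genes), one with the hepatocyte gene mean as a term (9) and one without small RNA genes (41). Without any filter 19 genes were called, of which 9 were shared with the 18. The cause of these shifts was not tested.

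The replicate block gave 31 genes, 22 higher with polyIC and 9 higher with the antibody, 15 of them shared. Deviations of same-numbered libraries from their group means correlated at 0.321, 0.094 and 0.231 across genes. Those of differently numbered libraries ran from -0.312 to 0.099, the highest being polyIC replicate 1 with antiPDL1 replicate 2. The main fit had no block because the replicate numbers are not said to pair samples. Whether the numbers mark pairs was not tested.

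Among single genes, 13 of the recomputed log2 differences changed sign, none of them of a gene that had passed. For Ifng the values were 0.073 with quantile normalization, 0.0013 with median-of-ratios rescaling and 0.30 with the hepatocyte term, and without 1 library they ranged from -0.32 (antiPDL1 replicate 2) to 0.22 (polyIC replicate 2). For Cd4 they were 0.0088 with quantile normalization and 0.094 with the hepatocyte term. Ly6c2 was at 0.72 with that term and at -0.89 to 0.31 without 1 library. With the hepatocyte term Rgs5 was at -0.070, Arg1 at -0.33 and Alb at -0.040. Of the others, 2730 kept their direction and side of the threshold, 221 newly passed and 87 no longer passed. Depth is known only in relative terms, so low values carry an unknown counting error.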
